A study of Mus musculus with 14 samples.

Results

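Notch signalling is read here through 10 genes in differentiating mouse embryonic stem cells: the receptors Notch1, Notch2 and Notch3, the ligands Dll1, Dll3, Dll4, Jag1, Jag2 and Dlk1, and the feedback gene Nrarp. They were taken by name and matched by Entrez identifier, and all 10 were found in both of the authors' full tables, which together hold 16060 genes (15108 at day 5, D5, and 15744 at day 10, D10). All cells belonged to the line GLI1-FTA in the A2Lox.cre strain, so the controls carry the GLI1 construct too. A2Lox.cre cells are built to take a doxycycline-inducible transgene at a single landing site. The construct encodes GLI1, which binds DNA and turns on Hedgehog target genes. In the induced cultures (GLI1 OE), doxycycline at 500 ng/ml was present for 48 h, from day 3 to day 5, and controls were untreated. At D5, labelled neural progenitor cells, there were 4 induced and 4 control libraries of polyadenylated RNA. At D10, labelled immature neurons and 5 days after the drug was washed out, there were 3 of each. The drug and GLI1 were given together, so their effects cannot be told apart. Whether the line is a single clone is not stated.

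In the Notch pathway, a ligand on one cell binds a receptor on its neighbour. The receptor is then cut, and its inner part enters the nucleus, where it joins RBPJ and Mastermind proteins and switches on Hes and Hey genes. In the developing neural tube, young neurons display Delta ligands and so hold their neighbours in the progenitor state, while Jagged ligands mark other progenitor domains.

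Each table gives, per gene, a log2 fold change (induced against control), an average log2 level in CPM (counts scaled to the library's total reads), a p-value and a false discovery rate (FDR), which is a p adjusted over all genes. A gene is called when that adjusted p is under 0.05. The tables hold no values per library, so the number of libraries that follow a direction, the overlap of groups and the sequencing depth per sample are unknown. An implied standard error (SE) was derived here as the fold change over the normal quantile of its p, and intervals are 95% intervals from it. It stands in for a replicate error and inherits the assumptions of the authors' test. Nothing in the labels says whether replicates were separate cultures, so the p-values measure only the spread between these samples. RNA was taken from whole cultures, so fewer cells of a type and less RNA per cell cannot be told apart. The induction itself is visible in the authors' deposited table, where Gli1 had a log2 fold change of 4.79 at D5 (adjusted p = 1.12e-81) and of 0.57 at D10 (adjusted p = 0.780). Transcripts of the endogenous gene and of the construct are counted as one.

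The first comparison asks how these genes responded at D5, while GLI1 was being induced. In the authors' deposited table none of the 10 was called in either direction, against 4.44% of all 15108 genes called. Their log2 fold changes ran from -0.59 to 0.32, with 7 above 0 and 3 below, and a median of 0.16. Over all genes the median was 0.0015, and 50.5% lay above 0. At an unadjusted p under 0.05 there were 4 of the 10 (Notch1, Notch2, Nrarp and Dlk1), against 10.7% of all genes.

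The receptors lay above 0 together at D5. Notch1, the receptor most studied in neural progenitors, had a level of 129 CPM in control and 161 CPM in induced cells. These group levels are implied by the average and the fold change of the authors' deposited table. Its log2 fold change was 0.32 (implied SE 0.11, interval 0.10 to 0.53, adjusted p = 0.0812), the smallest adjusted p among the 10 genes in the authors' deposited table. Notch2 stood at 114 CPM in control and 141 CPM in induced cells, and its log2 fold change in the authors' deposited table was 0.31 (implied SE 0.12, interval 0.08 to 0.54, adjusted p = 0.145). Notch3, the receptor with the most reads, stood at 199 and 219 CPM, with a log2 fold change of 0.14 in the authors' deposited table (interval -0.07 to 0.35, adjusted p = 0.877). Induced over control levels gave a ratio of 1.24 for both Notch1 and Notch2, and no receptor passed.

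That result for Notch1 and Notch2 depends on how the p-values are scaled. In the bin of about 500 genes of like average level that holds Notch1, the median size of z (the normal quantile of the p) was 0.61 times that of a standard normal. When z was rescaled in this way within each bin, 773 genes passed at D5 (5.12% of those tested) in place of 671. From the authors' deposited table rescaled in this way, Notch1 (adjusted p = 0.000141) and Notch2 (adjusted p = 0.0153) were then among them, and Nrarp was not (adjusted p = 0.0602). The rescaling assumes that most genes of a bin are unchanged. At a looser threshold of 0.1 on the deposited FDR, Notch1 alone of the 10 passed.

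The ligands that activate Notch on neighbouring cells showed no common direction at D5. Dll1, the Delta ligand of young neurons and their precursors, stood at 121 CPM in control and 136 CPM in induced cells. Its log2 fold change in the authors' deposited table was 0.17 (interval -0.02 to 0.37, adjusted p = 0.632). Jag1 stood at 104 and 96.1 CPM, and its log2 fold change in the authors' deposited table was -0.12 (interval -0.29 to 0.06, adjusted p = 0.891). Jag2, at 12.4 and 14.6 CPM, had 0.24 in the authors' deposited table (interval -0.08 to 0.56). Dll4, best known from sprouting blood vessels and from V2 interneuron precursors, was low at 6.32 and 6.06 CPM, with -0.06 in the authors' deposited table (interval -0.52 to 0.40). So Jag1 and Dll4 lay below 0 and Dll1 and Jag2 above it, each with an interval that includes 0.

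Dll3 and Dlk1 differ from these ligands. Dll3 acts mainly inside the cell that makes it and does not activate receptors on neighbours, and Dlk1 lacks the Notch-binding DSL domain and comes from an imprinted locus. Dll3 stood at 15.9 CPM in control and 17.0 CPM in induced cells at D5, with a log2 fold change of 0.09 in the authors' deposited table (interval -0.20 to 0.39). Dlk1 stood at 4.14 and 2.74 CPM and had the lowest value of the 10, -0.59 in the authors' deposited table (implied SE 0.29, interval -1.15 to -0.03, adjusted p = 0.40). Of the other 5 listed genes of the imprinted Dlk1-Dio3 cluster, 1 was called higher at D5 and 0 lower. This was Dio3, a thyroid hormone deiodinase, at 1.14 in the authors' deposited table (adjusted p = 0.0256), a call lost with rescaled p (adjusted p = 0.185). Meg3, the maternally expressed long RNA of the cluster, stood at -0.22 in the authors' deposited table (adjusted p = 0.424), and with rescaled p it passed (0.0123).

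Nrarp is switched on by Notch and binds the nuclear complex to limit its activity, so it is often used as a readout of the pathway. At D5 it stood at 75.7 CPM in control and 88.7 CPM in induced cells. Its log2 fold change in the authors' deposited table was 0.23 (implied SE 0.10, interval 0.03 to 0.43, adjusted p = 0.287). Hey2, another Notch target, was called on the same day with 1.18 in the authors' deposited table (adjusted p = 1.27e-05). The promoters of this pair are shown because one target passed and the other did not. Those of Heyl and Hey1, targets also called at D5, are not shown. Whether a motif goes with a call was not tested. Each run holds the 250 bases before the annotated start in RefSeq on GRCm38.p6, 5′ to 3′ on the gene's strand. Capitals mark ACCACCC, the core of the GLI motif, in Nrarp (plus strand, chr2:25180508-25180757). In Hey2 (minus strand, chr10:30842784-30843033) they mark TTCCCA, the reverse complement of the RBPJ core TGGGAA.
Nrarp: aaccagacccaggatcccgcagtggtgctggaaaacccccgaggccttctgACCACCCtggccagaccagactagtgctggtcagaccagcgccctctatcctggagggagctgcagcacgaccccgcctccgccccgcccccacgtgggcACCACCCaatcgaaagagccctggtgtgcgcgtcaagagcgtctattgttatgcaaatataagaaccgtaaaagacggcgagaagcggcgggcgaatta
Hey2: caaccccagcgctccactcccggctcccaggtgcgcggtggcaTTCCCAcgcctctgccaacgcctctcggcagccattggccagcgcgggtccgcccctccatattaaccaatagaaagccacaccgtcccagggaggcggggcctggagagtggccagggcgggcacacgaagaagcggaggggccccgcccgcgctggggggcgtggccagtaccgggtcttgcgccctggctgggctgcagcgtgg

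The Nrarp window holds ACCACCC at 199 to 193 and at 99 to 93 bases before the start, and no TGGGAA. The Hey2 window holds TGGGAA on the opposite strand at 207 to 202 bases before the start, and no ACCACCC. Windows were found for all 10 genes (11 windows, as Dll1 has 2 starts), and both strands were searched. The full GLI motif GACCACCCA, which contains that core, was in 0 of the 10 genes' windows and in 0.225% of all 32851 windows of this length. The core was in 1 of the 11 windows, that of Nrarp, against 3.92% of all windows. TGGGAA was in 0 of the 10 against 21.6% of all windows. The E-box CANNTG, a general motif that is not particular to proneural factors, was in 5 of the 11 windows against 66.2% of all windows. These windows belong to 4 of the 10 genes (Dll1, Dll3, Jag1 and Nrarp). In Nrarp the E-box, which reads CACGTG, does not overlap the ACCACCC matches. These are matches of letters in a short window, not measured binding sites.

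**Figure D1:**
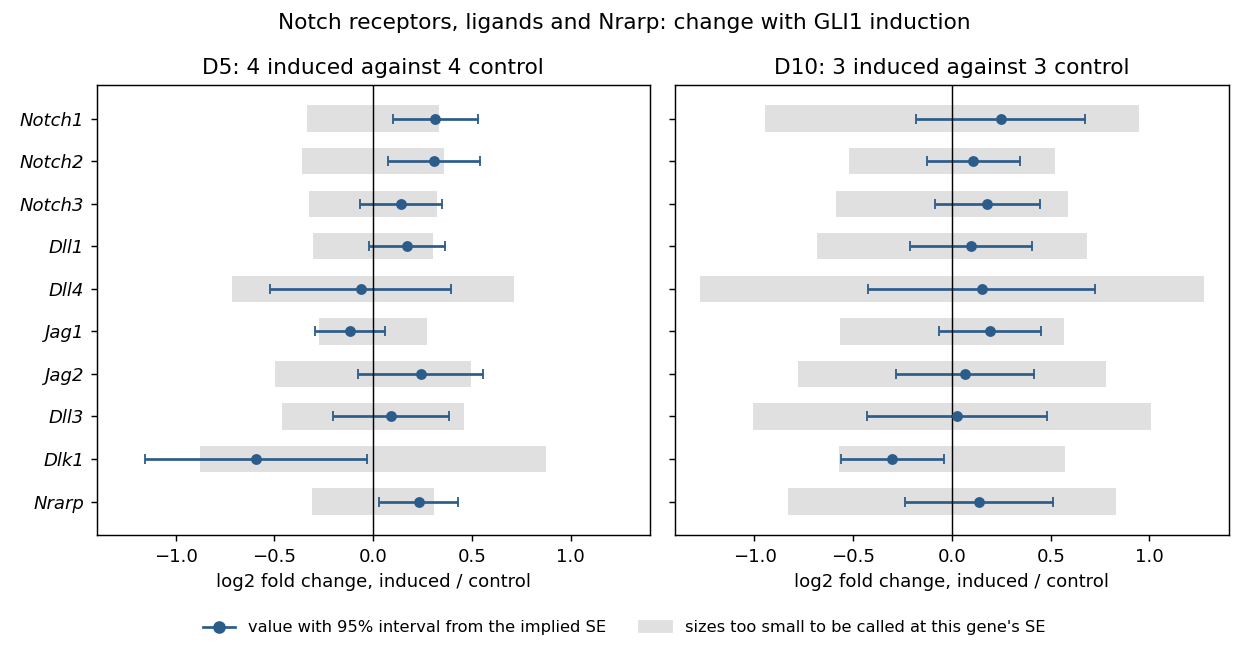
Log2 fold change of each of the 10 genes (x axis, induced against control) at D5 (left) and D10 (right). Points are the authors' values and bars are 95% intervals from the implied SE. Grey bands mark sizes that, at that SE, give a larger p than any called gene. All points lie inside their bands on both days; Notch1 at D5 (0.32 against 0.34 needed) comes closest.

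How small a change could have been called follows from these errors. The largest p among called genes at D5 was 0.00221. At its own implied SE, Jag1 would have needed a log2 fold change of 0.27 in size, Dll1 0.30, Nrarp 0.31, Notch3 0.32, Notch1 0.34 and Notch2 0.36. The genes of lower level needed more, up to 0.72 for Dll4 and 0.87 for Dlk1. For 9 of the 10 the interval lay within a 2-fold change in either direction, the exception being Dlk1.

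The second comparison asks what was seen at D10, after washout. Again none of the 10 was called, against 0.0826% of all genes (13 of 15744) in the authors' deposited table. Their log2 fold changes ran from -0.30 to 0.25, with 9 above 0 and 1 below and a median of 0.12. Over all genes the median was 0.0027, and 51.1% lay above 0. At an unadjusted p under 0.05 there was 1 of the 10, Dlk1, against 1.53% of all genes.

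Among the receptors at D10, Notch1 stood at 72.0 CPM in control and 85.5 CPM in induced cells, with a log2 fold change of 0.25 in the authors' deposited table (implied SE 0.22, interval -0.18 to 0.67). Notch2 stood at 75.2 and 81.0 CPM, with 0.11 in the authors' deposited table (interval -0.13 to 0.34). Notch3 stood at 116 and 132 CPM, with 0.18 in the authors' deposited table (interval -0.09 to 0.44). All 3 receptors were above 0 on both days without a call on either.

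The 4 activating ligands were also above 0 at D10. Jag1 stood at 39.9 CPM in control and 45.6 CPM in induced cells, with a log2 fold change of 0.19 in the authors' deposited table (interval -0.06 to 0.45). Dll1 stood at 58.3 and 62.4 CPM (0.10 in the authors' deposited table, interval -0.21 to 0.41), and Jag2 at 16.2 and 17.0 CPM (0.07, interval -0.28 to 0.42). Dll4 was at 1.96 and 2.18 CPM (0.15 in the authors' deposited table, interval -0.42 to 0.73). Nrarp, at 48.4 and 53.2 CPM, had 0.14 in the authors' deposited table (interval -0.24 to 0.51), and Dll3, at 25.5 and 26.0 CPM, had 0.03 (interval -0.43 to 0.48). Each of these intervals includes 0.

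Dlk1 was the one gene of the 10 below 0 on both days. At D10 it stood at 31.3 CPM in control and 25.4 CPM in induced cells, a log2 fold change of -0.30 in the authors' deposited table (implied SE 0.13, interval -0.56 to -0.04, unadjusted p = 0.0226, adjusted p = 1). Its p was the 121st smallest of 15744. With p rescaled from the authors' deposited table, where 119 genes passed at D10 (0.756% of those tested), Dlk1 passed in the lower direction (adjusted p = 0.00348) and the other 9 did not. The factor that divided its z was 0.52, and across the 10 genes these factors ran from 0.43 to 0.90 at D10. Dlk1 is made by fetal endoderm, mesenchyme and some neural cells. Of the 13 endoderm and epithelial markers measured at D10, 0 passed. The authors' deposited table has 11 of them below 0, and their median was -0.09. Of the other lists, 7 of 9 endothelial markers (median -0.10) and 3 of 5 imprinted neighbours of Dlk1 (median -0.05) also lay below 0. Above 0 lay 5 of 6 mural and mesenchymal markers (median 0.08), 9 of 9 neural progenitor markers and 9 of 14 neuron markers. The part of any of these lists in the Dlk1 value was not tested.

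The rule for a call was stricter at D10, where the largest p among called genes was 1.41e-05. Implied SEs were larger than at D5 for 9 of the 10 genes, though hardly so for Notch2 (0.12 on both days), and smaller for Dlk1 (0.29 at D5 and 0.13 at D10). The size needed for a call at each gene's implied SE ran from 0.52 (Notch2) to 1.27 (Dll4), with 0.57 for Jag1 and Dlk1 and 0.95 for Notch1. All 10 intervals lay within a 2-fold change in either direction. These sizes rest on the largest p already called, so a slightly smaller change could still have been called. Changes well below them would not have been called at these SEs with the 3 libraries in each group.

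The third comparison asks whether the response of a gene differed between the days. Each day has its own libraries, and the difference of the log2 fold changes was tested here against the combined implied SEs. None of the 10 differed, against 1.24% of the 14792 genes in both tables. At an unadjusted p under 0.05 there were also 0 of the 10, against 4.91% of all. Jag1 came closest, with -0.12 and 0.19 for D5 and D10 in the authors' deposited table, a difference of 0.31 (SE 0.16, interval -0.0014 to 0.62, unadjusted p = 0.0510, adjusted p = 1). With rescaled p its adjusted p was 0.0661. Notch2 had 0.31 and then 0.11 in the authors' deposited table (difference -0.20, interval -0.53 to 0.13) and Notch1 from 0.32 to 0.25 (difference -0.07, interval -0.55 to 0.41). Dlk1 went from -0.59 to -0.30 (difference 0.29, interval -0.33 to 0.91). Of the 10 genes, 7 were closer to 0 at D10 and 3 further from it, and 8 had the same sign on both days.

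Levels of the 10 genes can be set in order only per length of transcript. Per kilobase (kb) of merged exons in GENCODE M21, Dll1 had the highest average level at D5 with 35.9 CPM per kb, then Nrarp at 31.8, Notch3 at 26.0, Jag1 at 17.9, Notch1 at 15.3 and Notch2 at 12.1. Below them were Dll3 at 6.28, Jag2 at 2.64, Dll4 at 1.65 and Dlk1 at 0.72 CPM per kb. Among these cultures at D5, Dll1 was therefore the most abundant ligand and Notch3 the most abundant receptor by average. At D10 the order was Nrarp at 19.7, Dll1 at 16.8, Notch3 at 15.5, Dll3 at 9.82, Notch1 at 8.30, Jag1 at 7.62, Notch2 at 7.44, Dlk1 at 5.92, Jag2 at 3.24 and Dll4 at 0.55 CPM per kb. The averages come with no error, so neighbours in this order, such as Notch1, Jag1 and Notch2 at D10, cannot be said to differ beyond their spread.

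**Figure D2:**
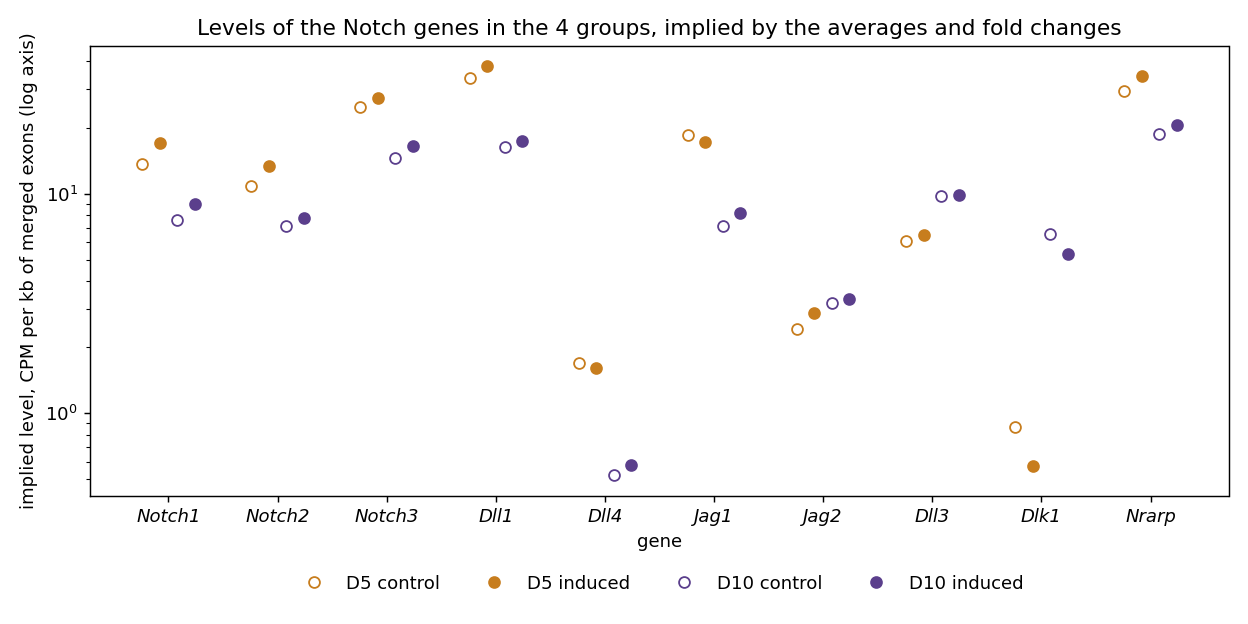
Implied level of each gene (y axis, CPM per kb of merged exons, log axis) in the 4 groups: open circles for control, filled circles for induced, orange for D5 and purple for D10. The days lie furthest apart for Dlk1 (0.87 and 0.57 at D5, 6.54 and 5.31 at D10), while for Jag2 the induced circles of the days (2.86 and 3.32) lie about as close as the control and induced circles of D5 (2.42 and 2.86).

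Between the days the average level of each of the 10 genes moved by more, on the log2 scale, than its log2 fold change with induction on either day. For Jag2 the margin was small (0.30 against 0.24). The tables of the days were made separately and averages carry no error, so this is a description without a test. Average levels at D10 over D5 were 0.54 for Notch1, 0.61 for Notch2, 0.59 for Notch3, 0.47 for Dll1, 0.43 for Jag1, 0.33 for Dll4 and 0.62 for Nrarp. These 7 genes were lower at D10, by 0.70 to 1.58 on the log2 scale, while over the 14792 shared genes the median change was 0.0053, with 80% of them between -0.78 and 1.16. Jag2 and Dll3 were higher at D10, with ratios of 1.23 and 1.57. Dlk1 was 8.23 times as high at D10, a change of 3.04 on the log2 scale and larger than that of 99.2% of the shared genes. In the controls alone the implied level of Dlk1 went from 4.14 to 31.3 CPM, a ratio of 7.56.

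Markers of several cell types moved between the days beside these levels. The summed level of 14 neuron markers went from 1203 CPM in controls at D5 to 2733 CPM at D10, with all 14 higher on average. That of 9 neural progenitor markers went from 1978 to 1328 CPM, with 6 lower and 3 higher. That of 12 endoderm and epithelial markers in both tables went from 831 to 2206 CPM with all 12 higher, and that of 5 mural and mesenchymal markers from 292 to 890 CPM with all 5 higher. The 5 imprinted neighbours of Dlk1 went from 497 to 905 CPM in controls, all 5 higher on average. The part of these markers in the levels of the Notch genes was not tested. Of the 15 endothelial markers, 7 were in both tables, 4 of them higher and 3 lower (Kdr, Eng and Plvap) on average at D10. Their sum was 51.0 CPM in D5 controls and 240 CPM in D10 controls, most of it from Flt1 (averages of 23.2 and 133 CPM) and, at D10, Tek (4.92 and 71.5 CPM). Pecam1, Tie1, Erg, Emcn, Robo4 and Cldn5 are not in either table used here.

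**Figure D3:**
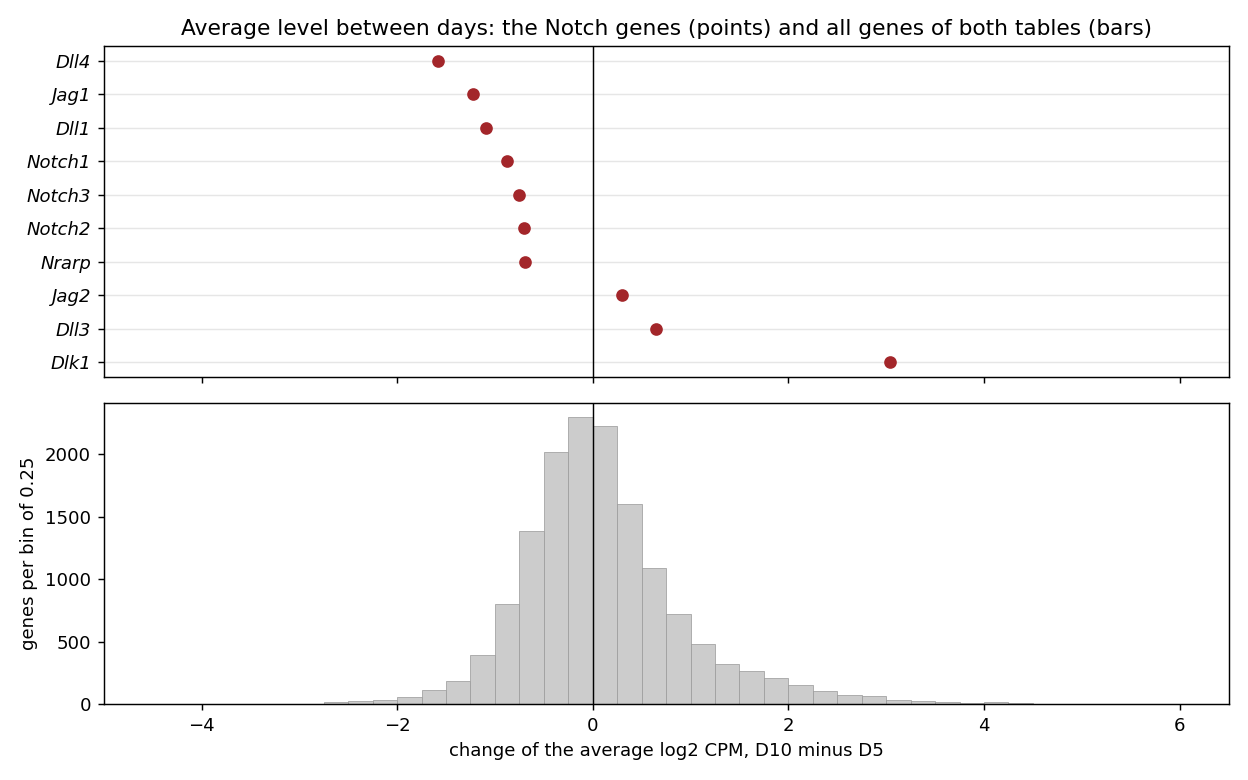
Change of the average log2 CPM from D5 to D10 (x axis) for the 10 Notch genes (points, top) and for all 14792 shared genes (histogram, bottom, bins of 0.25). Of the 10 genes, 7 lie left of 0, between -1.58 and -0.70, and Dlk1 lies far right at 3.04.

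The rest of the Notch pathway was followed in 53 further genes in 7 lists by role. At D5, 51 were measured, and the authors' deposited table has 6 called higher and 0 called lower, against 2.34% of all genes called higher and 2.1% called lower. Their median log2 fold change was 0.02. The 5 of them described here (Heyl, Hey1, Hey2, Mfng and Dtx1) are targets of the receptors or modify them. None of the 10 receptors, ligands and Nrarp was called. With 4.44% of all genes called, 0 of 10 is near that share, and Notch1 and Notch2 passed with rescaled p. A split of the calls by role is therefore not shown.

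Among the target genes, 3 of 6 measured were called. For the repressors Heyl, Hey1 and Hey2 the authors' deposited table gives 4.68, 0.94 and 1.18 at D5, Heyl at a low average log2 CPM of 0.69. Hes1, Hes5 and Hes3 were not called. The 6 fringe and O-glycosylation enzymes add sugars to the receptors, and the fringe enzymes among them set the preference for Delta or Jagged ligands. Of the 6, the fringe gene Mfng was called at 0.64 (implied SE 0.13), while Lfng stood at -0.0029 in the authors' deposited table. Rbpj, the DNA-binding partner of the cut receptor, stood at 0.08 in the authors' deposited table and was not called.

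Of the 10 genes of receptor turnover, Dtx1, a ubiquitin ligase that binds the receptor, was called at 1.09 in the authors' deposited table (implied SE 0.24, adjusted p = 0.00052); with Holm's adjustment it did not pass (0.132). Receptor cleavage had 0 calls of 10, with 1 gene at an unadjusted p under 0.05. The smallest p there belonged to the presenilin gene Psen2 at -0.50 in the authors' deposited table (adjusted p = 0.267). Ligand ubiquitination had 0 calls of 6 and none at an unadjusted p under 0.05, with Mib1, the ligase that lets ligands be pulled into the cell, at 0.17 (adjusted p = 0.623 in the authors' deposited table). Over all genes at D5, 4.44% were called and 10.7% had an unadjusted p under 0.05. The counts for cleavage and ubiquitination are near those shares. Of the further receptor and ligand genes, Notch4 stood at -0.21 and Dner at -0.02 in the authors' deposited table, and Dlk2 was measured only at D10.

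At D10, 0 of the 52 measured pathway genes were called in the authors' deposited table, against 0.0826% of all genes. At an unadjusted p under 0.05 there were also 0 of the 52, against 1.53% of all genes. Both counts are near those shares. The smallest p in each of 6 lists belonged to Hey1 (log2 fold change 0.32), Lfng (0.27), Aph1c (-0.16), Neurl1a (-0.18), Lnx1 (0.15) and Dlk2 (0.39) in the authors' deposited table. Between the days 1 of these genes differed, Hey2, which went from 1.18 to -0.12 (adjusted p of the difference 0.00838). With rescaled p there were 4, among them Hey1, Hey2 and Mfng. With Holm's adjustment there were 0. Heyl could not be compared, since its p of 1 at D10 gives no implied SE.

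**Figure D4:**
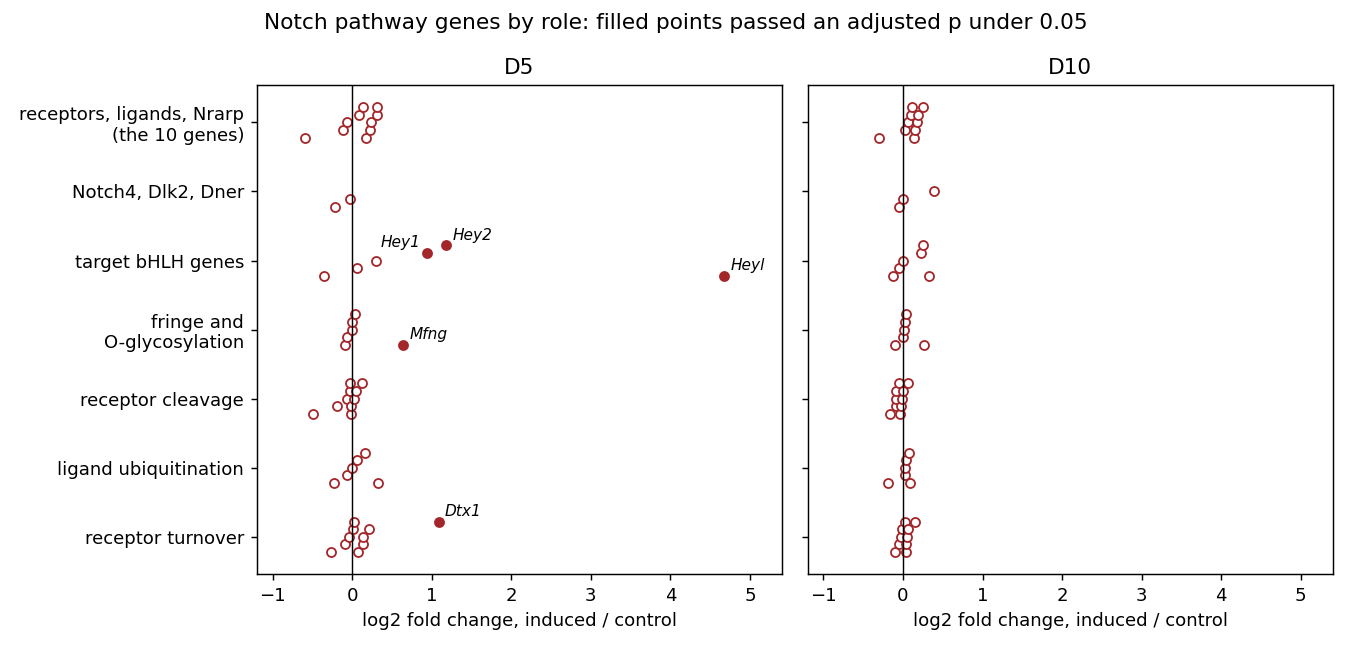
Log2 fold change (x axis, induced against control) of the 10 Notch genes (top) and of other pathway genes in 6 lists by role, at D5 (left) and D10 (right), 1 point per gene, filled where the adjusted p is under 0.05. At D5 the 5 filled points are Heyl, Hey2, Dtx1, Hey1 and Mfng, from 4.68 to 0.64, and at D10 there are 0.

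Genes known to drive ligand expression and markers of the cell types in culture are given beside these values. Of 8 measured proneural and neurogenic factors, which switch on Delta ligands, the authors' deposited table has 2 called higher and 0 called lower at D5, Neurog3 at 1.52 (average log2 CPM 0.89) and Neurog2 at 0.68. Neurog1 stood at -0.10 in the authors' deposited table and was not called. Of 14 neuron markers 0 were higher and 7 lower at D5 (among them Nefm at -1.61, Nefl at -1.11, Gap43 at -0.70 and Stmn2 at -0.39 in the authors' deposited table), and their summed level was 1203 CPM in control and 880 CPM in induced cells. Of 9 progenitor markers 1 was higher (Slc1a3 at 1.11 in the authors' deposited table) and 0 lower, with sums of 1978 and 1985 CPM. The endoderm and epithelial list had 2 higher (Foxa2 at 1.37 and Foxa1 at 1.41, both also floor plate factors) and 5 lower, among them Gata4 at -0.78 and Gata6 at -0.67 in the authors' deposited table. Of its 12 measured markers, 4 lay above 0 and 8 below. Afp at 0.86 (adjusted p = 0.258) and Ttr at 0.54 (adjusted p = 0.095) in the authors' deposited table lay above 0 without a call. With rescaled p, Ttr passed as higher (0.0259) and Sox17 as lower (0.0253). At D5 the sums of this list were 831 CPM in control and 630 CPM in induced cells. Dlk1 lay below 0 on that day. Pluripotency markers had 0 higher and 4 lower of 11 (in the authors' deposited table Lefty2 at -3.11, Tdh at -0.83, Dppa5a at -0.73 and Dnmt3b at -0.44, with Lefty2 and Tdh lost with rescaled p). Lefty2 had a very low average log2 CPM of -2.07. Mural and mesenchymal markers had 1 higher (Pdgfrb at 1.64, at a low average log2 CPM of 0.98) and 1 lower (Pdgfra at -0.81). Endothelial markers had 0 higher and 1 lower (Flt1 at -0.92 in the authors' deposited table). Under the stricter Holm adjustment, calls at D5 went from 2 to 1 for the proneural list (Neurog2 was lost), from 7 to 3 for neuron markers (Nefm, Nefl and Gap43 were left), and from 7 to 2 for the endoderm list (Foxa2 and Foxa1, with 0 lower). They went from 4 to 0 for pluripotency, and from 2 to 1 for mural markers (Pdgfra was lost). The part of these markers in the values of the Notch genes was not tested.

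At D10, 0 members of any of these lists were called, against 0.0826% of all genes. Those with the smallest p were Neurod4 at 0.29, Rtl1 at 0.22, Cdh5 at -0.49, Rgs5 at 0.81, Foxa1 at 0.25, Nes at 0.35, Syt1 at 0.26 and Dppa5a at 0.67 in the authors' deposited table. All 9 progenitor markers lay above 0 at D10, with a median of 0.18, as did the 3 receptors and the 4 activating ligands. With rescaled p, Nes, Fabp7 and Slc1a3 of this list and Neurod4 passed at D10, all in the higher direction. The sum of the progenitor markers was 1328 CPM in control and 1455 CPM in induced cells at D10. Whether the Notch values follow from it was not tested.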

How the data were processed

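The values are the authors' own comparisons, for each day one table of all genes and one of a selection; there were 14 libraries in 4 groups, taken from the labels. The log2 fold changes and average log2 CPM were deposited by the authors, per the file headers, as were the p-values and FDR. The base of the average was checked: as powers of 2 the averages add up to 1001543 (D5) and 1001340 (D10). The fold change was taken to share it. The FDR equals a Benjamini-Hochberg adjustment within 3.41e-05, and the selected genes are those under 0.05. The sources used here name no aligner, counting method, filter, test or genome build. The labels call the reads stranded, but whether counting used strand is not given, and exons of Notch1, Notch3, Dll1, Dll4 and Nrarp overlap a gene on the opposite strand in GENCODE M21, and those of Notch2 a gene on the same strand; these values are uncertain to that extent.

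Symbols came from an NCBI RefSeq table of GRCm38.p6, which matched 94.6% of identifiers on each day. A signed z and an implied SE were derived from each p; 227 genes at D5 and 288 at D10 have none. For the difference between days a normal reference was used, two-sided, with Benjamini-Hochberg adjustment over 14792 genes; the 434 without an SE were entered as no difference. Group levels assume that the average CPM is the mean of both groups. The procedures were run on data simulated with a normal spread at the implied SEs, which cannot show whether those SEs are right. Python 3.11.15, SciPy 1.17.1 and pandas 2.3.3 were used.

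The members, 19 lists with 148 genes, tests and alternatives were chosen with earlier results of these data known. Named are Gli1, the 10 genes, and of each list up to 4 called genes with the smallest p, or the one with the smallest p; a few genes that this rule names are not reported here. Named after their values were seen were Hes1, Hes3, Hes5, Lfng, Rbpj, Dner, Neurog1, Meg3, Fabp7, Tek, Kdr, Eng, Plvap, Afp, Ttr and Sox17. The motif ACCACCC was chosen after seeing the promoters. Protein sequences were not used here.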

Additional observations from a re-analysis of the deposited data

Results flagged for a closer look

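For none of the 10 Notch genes was a difference between the days called, against 1.24% of the 14792 shared genes. A count of 0 of 10 is near that share. The intervals of their differences reach up to 0.95 (Dll4), so a difference is not shown to be absent. Of the other listed genes, 10 passed the test of the difference, given here as D10 minus D5 of the log2 fold changes. Hey2, the one Notch target among them, had a difference of -1.31 (in the authors' deposited table, D5 has 1.18 and D10 has -0.12; the difference had an adjusted p of 0.00838). Downward differences were also found for Foxa1 (-1.15), Foxa2 (-1.33) and Slc1a3 (-0.84). Upward differences were found for the neuron markers Nefl (1.14), Nefm (1.68) and Gap43 (0.64), for Flt1 (0.86) and for the pluripotency genes Dppa5a (1.39) and Dnmt3b (0.64).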

How the results depend on the processing

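The 10 Notch genes gave 170 results under the alternatives (thresholds of 0.01 and 0.1, Holm's adjustment, a minimum fold of 2, a floor of 1 on the average log2 CPM, rescaled p). Of these, 166 stayed on the same side of the threshold, 4 passed where they had not, and 0 were lost. None of the 10 was called in the main setting, so no call could be lost. The threshold of 0.01, Holm's adjustment and the 2-fold minimum are stricter and could not add a call, so much of this count was fixed beforehand. The number called at D5 went from 0 to 1 at a threshold of 0.1 and to 2 with rescaled p, and at D10 from 0 to 1 with rescaled p. The 6 other Notch genes called at D5 became 3 with a 2-fold minimum (Heyl, Hey2 and Dtx1). The 1 that differed between days became 0 with Holm's adjustment and 4 with rescaled p. Those with Holm's adjustment and the 2-fold minimum follow from the stricter rule; for rescaled p, the cause was not tested beyond the factors given for the 10 genes. Taking the average as the mean of log2 levels moved no group level by more than 1.02 times, and the longest transcript in place of merged exons, added after seeing the data, changed no gene's place in the order per kb on either day. No paired analysis was possible because the tables hold no values per library, and for the same reason no replicate could be left out. Depth per sample is unknown.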
